A study of Mus musculus with 8 samples.

Results

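The classical cadherins are 10 genes of the mouse genome given by name (*Cdh1*, *Cdh2*, *Cdh3*, *Cdh4*, *Cdh5*, *Cdh6*, *Cdh10*, *Cdh11*, *Cdh13* and *Cdh15*) and taken from the 54532 genes of each count file by their Ensembl identifiers. All 10 were found, and 9 had enough counts to be tested. RNA was sequenced from 8 primary pericyte cultures derived from wild-type (WT) mouse brain, 4 treated with vehicle and 4 with TGF-β1 (5 μg/mL) for 48 h. The comparison asked which cadherin messages brain pericytes carry and how TGF-β1 alters them. The labels give neither strain nor age, and the methods state male mice of 4 and 6 months for the study's mice without tying them to these cultures. Cells were freed with papain and first expanded on coated plates in an endothelial growth medium with serum, and from the later passages on they were kept in a pericyte medium with less serum, away from a vessel. The methods describe 4 isolates given both treatments, but the labels number the vehicle cultures 1 to 4 and the TGF-β1 cultures 5 to 8 and pair none of them. Each culture held 45255235 to 47651397 counts, and 3 counts correspond to at most 0.0657 CPM (a gene's counts scaled to a library of 1000000, after TMM).

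Cadherins are membrane proteins that hold neighbouring cells together by calcium-dependent binding between their extracellular repeats. Inside the cell, the tail of a classical cadherin binds β-catenin or plakoglobin at its end and p120-catenin nearer to the membrane, and α-catenin and vinculin link this complex to actin. Cells sort by the cadherin they carry, and in the vessel wall N-cadherin (*Cdh2*) joins pericytes to endothelial cells while VE-cadherin (*Cdh5*) joins endothelial cells to each other.

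The coding ends of *Cdh5* and *Cdh11*, the highest in vehicle per kilobase, and of *Cdh6*, *Cdh10* and *Cdh13*, the largest changes that held under every alternative, are shown first, since the tail is what makes a cadherin classical. Each line gives the final 96 bases of the coding sequence with its stop codon, 5′ to 3′ on the strand of the gene, from the GENCODE M21 transcript with the longest coding sequence (GRCm38). Capitals mark the in-frame run TGGGGNNNNNGNTT, in which the opening 5 letters were searched for in frame and the rest are letters that every member with them shared, with N where they differed. The windows lie in the last exon at chr8:104142903-104142998 (*Cdh5*, plus strand), chr8:102634314-102634409 (*Cdh11*, minus strand), chr15:13034200-13034295 (*Cdh6*, minus strand) and chr15:19013587-19013682 (*Cdh10*, plus strand). That of *Cdh13* (plus strand) crosses an intron, with 88 bases at chr8:119314107-119314194 in exon 13 and 8 at chr8:119323395-119323402 in exon 14.
Cdh5: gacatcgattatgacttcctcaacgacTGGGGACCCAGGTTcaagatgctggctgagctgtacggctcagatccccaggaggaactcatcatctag
Cdh11: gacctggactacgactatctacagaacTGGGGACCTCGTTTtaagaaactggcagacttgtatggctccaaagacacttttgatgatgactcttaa
Cdh6: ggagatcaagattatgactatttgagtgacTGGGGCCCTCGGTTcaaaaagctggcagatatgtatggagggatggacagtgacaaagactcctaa
Cdh10: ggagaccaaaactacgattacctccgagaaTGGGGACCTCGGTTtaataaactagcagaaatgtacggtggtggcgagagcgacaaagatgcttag
Cdh13: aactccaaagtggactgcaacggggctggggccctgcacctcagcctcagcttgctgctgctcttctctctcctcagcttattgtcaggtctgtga

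The run was thus read from 9 of the 10 members, type I (*Cdh1*, *Cdh2*, *Cdh3*, *Cdh4*, *Cdh15*) and type II (*Cdh5*, *Cdh6*, *Cdh10*, *Cdh11*) alike. Among all 21616 coding genes with such a window, 20 (0.0925%) held it, and 15 of these 20 are cadherins. These 15 include the 9 members from which the run was read, which hold it by construction. *Cdh13* did not hold it: T-cadherin is anchored to the membrane by a lipid and has no cytoplasmic tail, so it is a member of the list without the catenin-binding part. Along the whole coding sequence the most alike pair of members was *Cdh6* and *Cdh10*, with 71.8% identity over 2351 aligned bases. The next was *Cdh2* and *Cdh4* with 68.9%.

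With TGF-β1, the N-cadherin, *Cdh6* and *Cdh10* messages rose and T-cadherin fell by 1.45 on the log2 scale. VE-cadherin, the member with the highest level, did not pass the test. In edgeR's quasi-likelihood test with Benjamini-Hochberg adjustment over 22544 genes, 4 of the 9 members tested rose, 2 fell and 3 were not called, where 41.3% of all genes tested were called, 20.9% higher and 20.3% lower. The rise of *Cdh3* and the fall of *Cdh11* lay near the threshold and were lost under most alternatives. *Cdh3* also passed the count filter mainly through its TGF-β1 cultures, at 14, 12, 21 and 16 counts against 10, 2, 12 and 6 in vehicle. Its place among the 4 that rose therefore carries no weight beside the share of all genes. The median log2 fold change was 0.25 over these 9 members, which is the value of the scarce and uncalled *Cdh4*, and −0.01 over all genes tested. No exon of a member overlaps an exon of another gene, and at most 2.07% of the 50-base words of a member (*Cdh11*) occur in the transcripts of other genes.

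**Figure D1:**
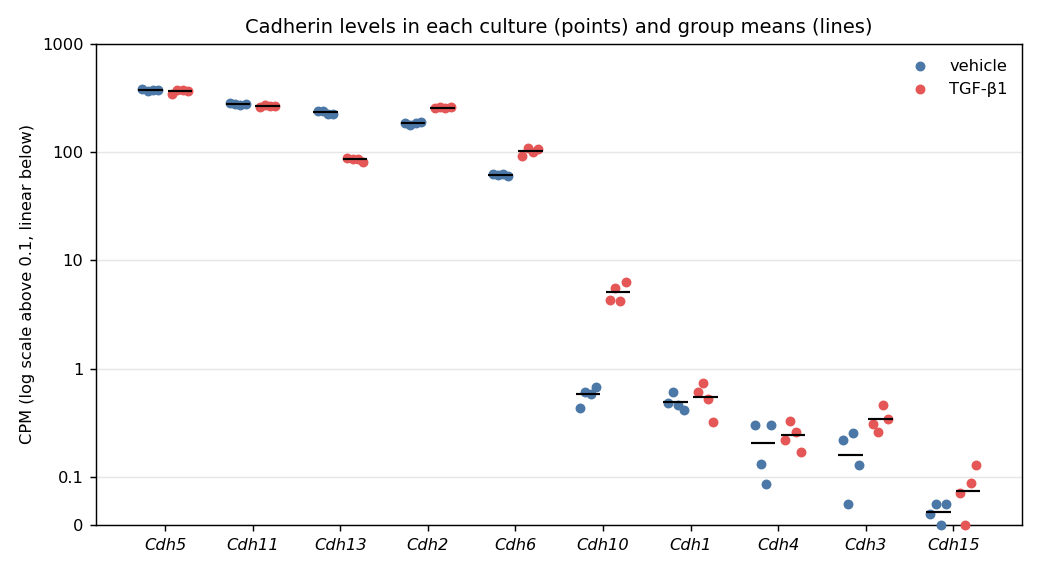
CPM of the 10 cadherins (log axis above 0.1, linear below) in each of the 4 vehicle and 4 TGF-β1 cultures, 1 point per culture, with the group means. *Cdh2*, *Cdh6* and *Cdh10* lie higher with TGF-β1 without overlap and *Cdh13* lower, while *Cdh5* overlaps. *Cdh3* (higher) and *Cdh11* (lower) also do not overlap, but only narrowly. Of all genes tested, 37.9% do not overlap.

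VE-cadherin (*Cdh5*, ENSMUSG00000031871, chr8:104101625-104144511) is the junctional cadherin of endothelium. Its level was 382, 367, 375 and 374 CPM in the vehicle cultures and 348, 377, 373 and 368 CPM in the TGF-β1 cultures. The groups overlapped, with TGF-β1 culture 5 the lowest and vehicle culture 1 the highest. The means were 374 ± 6.23 and 367 ± 12.9 CPM (SD, n = 4 each), the log2 fold change −0.03 (SE 0.02, 95% interval −0.08 to 0.02, edgeR adjusted p = 0.342). In vehicle, *Cdh5* stood at rank 316 of the genes tested by CPM.

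Other endothelial genes were far lower. Per kilobase of exon, *Cdh5* ranged from 82.9 to 91.0 CPM over the 8 cultures, whereas *Pecam1*, the endothelial adhesion molecule CD31, ranged from 0.125 to 0.264. The list of 8 endothelial markers summed to 100.8 to 106.6 CPM in vehicle and 119.7 to 123.3 CPM with TGF-β1, most of it *Flt1*, which is named here after its values were seen. *Flt1* held 5.92 to 7.45 CPM per kilobase, and *Cldn5*, *Tie1*, *Emcn* and *Erg* were under 1 CPM in every culture, though none was at 0 in all 8. What cells the *Cdh5* message came from was not tested, and in bulk cultures fewer cells of a type and less RNA per cell cannot be told apart.

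**Figure D2:**
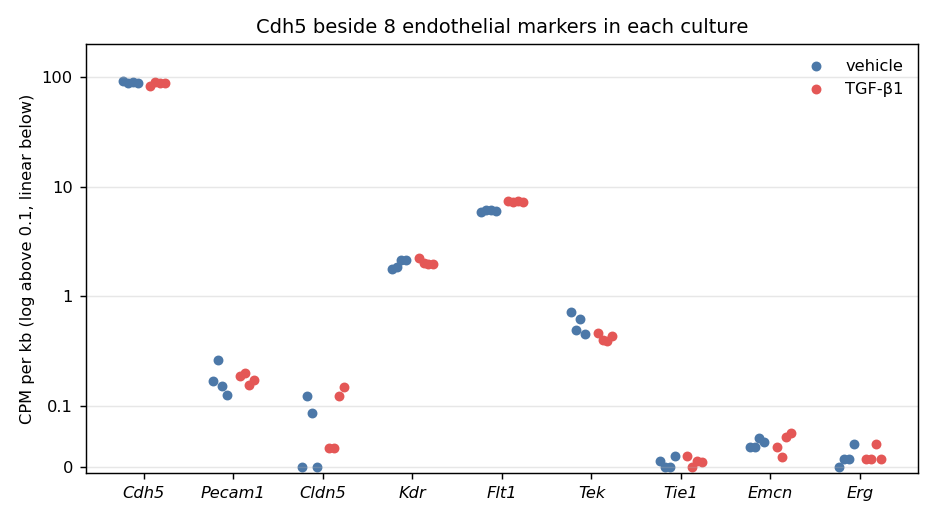
CPM per kilobase of merged exon (log axis above 0.1, linear below) of *Cdh5* and the 8 endothelial markers, 1 point per culture for the 4 vehicle and 4 TGF-β1 cultures. *Cdh5* lies at 82.9 to 91.0 in every culture, above *Flt1* (5.92 to 7.45) and all other markers.

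N-cadherin (*Cdh2*, ENSMUSG00000024304, chr18:16588877-16809246) is the type I cadherin of neural and mesenchymal cells. It was at 187, 179.8, 188 and 189.6 CPM in vehicle and at 254, 259.7, 259 and 262 CPM with TGF-β1. All 4 TGF-β1 cultures lay above all 4 vehicle cultures, as in 37.9% of the genes tested that did not overlap in either direction. The mean rose from 186 ± 4.26 to 259 ± 3.06 CPM (SD, n = 4 each), 1.39-fold, with a log2 fold change of 0.48 (SE 0.02, edgeR adjusted p = 5.13e-21).

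T-cadherin (*Cdh13*, ENSMUSG00000031841, chr8:118283733-119324921), a receptor for adiponectin and low-density lipoprotein, moved the other way. Its level was 242, 242.5, 226 and 224.5 CPM in vehicle and 88.5, 86.6, 86.2 and 81.1 CPM with TGF-β1. The groups lay far apart, and every TGF-β1 culture was under the lowest vehicle culture. The mean went from 233 ± 9.81 to 85.6 ± 3.18 CPM (SD, n = 4 each), 2.73-fold lower, with a log2 fold change of −1.45 (SE 0.03, edgeR adjusted p = 7.89e-33). The size of this change exceeded that of 97.8% of the genes tested.

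*Cdh6* (K-cadherin, ENSMUSG00000039385, chr15:13028701-13173675), a type II cadherin known from kidney and neural crest, was at 63.3, 61.7, 63.2 and 59.8 CPM in vehicle. With TGF-β1 it was at 92.7, 109, 101 and 108 CPM. TGF-β1 culture 5 was the lowest of its group and still above every vehicle culture. The mean rose from 62.0 ± 1.64 to 102.5 ± 7.40 CPM (SD, n = 4 each), 1.65-fold, with a log2 fold change of 0.73 (SE 0.04, edgeR adjusted p = 2.83e-14).

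*Cdh10* (ENSMUSG00000022321, chr15:18818947-19014236), a type II cadherin known from brain and the closest relative of *Cdh6* here by sequence, showed the largest change of the members. It had 20, 28, 28 and 31 counts in vehicle and 196, 258, 194 and 297 counts with TGF-β1. The lowest TGF-β1 culture was far above the highest vehicle culture, at 4.23 against 0.671 CPM. The mean rose from 0.577 ± 0.102 to 5.11 ± 1.03 CPM (SD, n = 4 each), with a log2 fold change of 3.14 (SE 0.17, edgeR adjusted p = 6.85e-20). By size this was rank 23 of the 22544 genes tested. Even so, its level with TGF-β1 stayed far below that of *Cdh6*, at 0.508 against 11.4 CPM per kilobase. The 5 neuron markers summed to 14.1 to 16.6 CPM in vehicle and 16.0 to 19.5 CPM with TGF-β1, with *Rbfox3*, the neuronal splicing factor NeuN, under 1 CPM in all cultures. That sum joined a rise of the tubulin *Tubb3* from 2.11 ± 0.313 to 7.90 ± 1.09 CPM (log2 fold change 1.90, edgeR adjusted p = 3.58e-18) and a fall of *Map2* from 10.8 ± 0.926 to 6.92 ± 0.742 CPM (log2 fold change −0.65, edgeR adjusted p = 5.02e-09; SD, n = 4 each), both named after their values were seen. The part of these markers in the *Cdh10* and *Cdh2* values was not tested.

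The promoter table of RefSeq (GRCm38.p6) matched 3 of the 10 members, *Cdh6*, *Cdh10* and *Cdh15*. The 250 bases before the start of *Cdh6* and *Cdh10* are printed because both genes rose and are most alike in coding sequence. They are chr15:13173676-13173925 on the minus strand for *Cdh6* and chr15:18820079-18820328 on the plus strand for *Cdh10*, the latter within an intron of GENCODE transcripts that start further upstream. Capitals mark matches, on either strand, to CACCTG (the E-box of Snail and ZEB factors), GTCTG (a SMAD-binding element), CATTCC (TEAD) or GGGCGG (GC box).
Cdh6: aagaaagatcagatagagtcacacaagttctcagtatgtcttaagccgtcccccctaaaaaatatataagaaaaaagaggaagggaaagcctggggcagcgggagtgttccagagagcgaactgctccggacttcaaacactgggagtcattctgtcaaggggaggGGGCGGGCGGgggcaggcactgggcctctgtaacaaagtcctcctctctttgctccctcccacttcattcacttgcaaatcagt
Cdh10: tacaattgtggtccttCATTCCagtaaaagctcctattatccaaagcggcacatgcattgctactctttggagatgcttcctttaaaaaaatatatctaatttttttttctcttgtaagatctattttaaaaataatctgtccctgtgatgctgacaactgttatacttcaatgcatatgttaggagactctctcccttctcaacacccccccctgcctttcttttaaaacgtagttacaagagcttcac

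The *Cdh6* window held 2 overlapping GC boxes, with first bases 84 and 80 bases before the start, and had a GC content of 51.2%. The *Cdh10* window held 1 TEAD match, starting 234 bases before the start, and had a GC content of 36.8%, where the median of all windows was 52.4%. Neither window held CACCTG or GTCTG, which occurred in 17.2% and 42.2% of the 32851 windows of the same length, while CATTCC occurred in 12.6% and GGGCGG in 32.7%. These matches describe letters and not bound sites.

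*Cdh11* (OB-cadherin, ENSMUSG00000031673, chr8:102632095-102785642), the type II cadherin of mesenchymal cells, was the second of the members by CPM. It was at 284, 278, 275 and 276 CPM in vehicle and at 262, 274, 266 and 268 CPM with TGF-β1. The groups did not overlap, but the lowest vehicle culture (274.9 CPM) and the highest TGF-β1 culture (273.8 CPM) nearly met. The means were 278 ± 4.13 and 268 ± 4.88 CPM (SD, n = 4 each), with a log2 fold change of −0.06 (SE 0.02, edgeR adjusted p = 0.0488). The call held under 5 of 15 alternatives, with adjusted p from 0.0134 to 0.216, and DESeq2 gave an adjusted p of 0.0510. It was lost when any culture other than TGF-β1 culture 6 was left out, with adjusted p from 0.0548 to 0.216.

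The remaining members were scarce. P-cadherin (*Cdh3*, ENSMUSG00000061048, chr8:106510891-106557297), which is found in basal epithelium, had 10, 2, 12 and 6 counts in vehicle and 14, 12, 21 and 16 with TGF-β1. Scaled to CPM, the TGF-β1 cultures lay just above the vehicle cultures, the nearest being 0.261 against 0.252 CPM. The log2 fold change was 1.07 (SE 0.43, edgeR adjusted p = 0.0412). With halved counts, or with at least 10 counts required in every culture, *Cdh3* did not pass the filter. The call held under 6 of the 13 alternatives that gave it a value, with adjusted p from 0.0235 to 0.179, and DESeq2 gave 0.0902. It was lost without vehicle culture 2 (adjusted p = 0.179), vehicle culture 4 (0.105), TGF-β1 culture 5 (0.0565), TGF-β1 culture 7 (0.152) or TGF-β1 culture 8 (0.0721).

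E-cadherin (*Cdh1*, ENSMUSG00000000303, chr8:106603351-106670246), the cadherin of epithelia, lies next to *Cdh3* on the same strand. It had 22, 28, 22 and 19 counts in vehicle and 28, 34, 24 and 15 with TGF-β1, and TGF-β1 cultures were both the highest and the lowest. At 0.491 ± 0.0864 against 0.548 ± 0.177 CPM (SD, n = 4 each) the difference was not detectable at this depth (log2 fold change 0.16, 95% interval −0.45 to 0.76, edgeR adjusted p = 0.724). Of the 8 epithelial markers, 7 were under 1 CPM in every culture, *Epcam* among them, and the list summed to 5.64 to 6.67 CPM in vehicle and 7.09 to 9.11 CPM with TGF-β1. Most of that sum was *Krt19*, which rose from 5.06 ± 0.46 to 7.08 ± 0.75 CPM (SD, n = 4 each, log2 fold change 0.48, edgeR adjusted p = 3.56e-05), named after its values were seen.

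R-cadherin (*Cdh4*, ENSMUSG00000000305, chr2:179442431-179899373), known from retina and brain, had 14, 6, 4 and 14 counts in vehicle and 10, 15, 12 and 8 with TGF-β1. The groups overlapped, and the log2 fold change was 0.25 (95% interval −0.63 to 1.12, edgeR adjusted p = 0.6998). M-cadherin (*Cdh15*, ENSMUSG00000031962, chr8:122847966-122867397), the cadherin of skeletal muscle precursors, had 1, 2, 0 and 2 counts in vehicle and 3, 0, 4 and 6 with TGF-β1, too few for the test across genes. Most cultures were at or under 3 counts, so no fold is given, and an exact two-sided permutation test of its CPM gave p = 0.2, where 4 against 4 cultures can reach 0.0286. All 5 skeletal myogenic markers were under 1 CPM in every culture, and *Myod1*, the muscle determination factor, was among them.

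**Figure D3:**
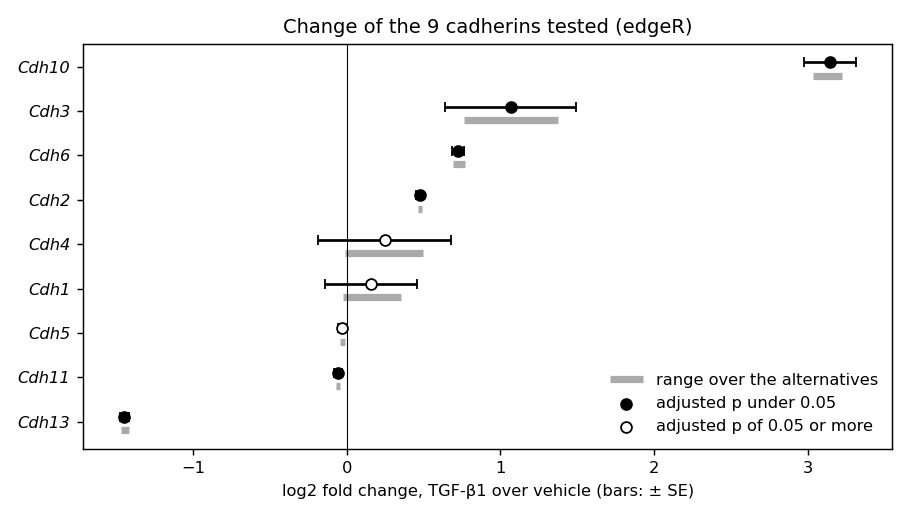
Log2 fold change (TGF-β1 over vehicle) of the 9 members tested, with black bars of the standard error, grey bars for the range over the alternatives and filled points where the adjusted p is under 0.05. *Cdh10* (3.14) and *Cdh13* (−1.45) lie furthest from 0, and *Cdh5* (−0.03) and *Cdh11* (−0.06) nearest.

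Which cadherin dominates was read per kilobase of merged exon, since long genes collect more counts. *Cdh5* came first in all 8 cultures and held 52.0% ± 0.328 of the summed level of the 10 members in vehicle and 51.6% ± 0.5 with TGF-β1 (SD, n = 4 each). Below it the order changed. In vehicle it ran *Cdh11*, *Cdh2*, *Cdh13*, *Cdh6*, and with TGF-β1 *Cdh2*, *Cdh11*, *Cdh6*, *Cdh13*, with the ranges of neighbours apart in both groups. On this scale *Cdh5* was 2.85 times the next member (*Cdh11*) in vehicle and 2.72 times the next (*Cdh2*) with TGF-β1. The lead was smaller on the other scales. By CPM it was 1.35 in vehicle and 1.37 with TGF-β1, both over *Cdh11*. Per kilobase of the single transcript with the longest coding sequence it was 1.52 (over *Cdh13*) and 1.72 (over *Cdh2*).

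The share of *Cdh2* was 13.5% ± 0.308 in vehicle and 19.0% ± 0.346 with TGF-β1, and that of *Cdh6* 4.01% ± 0.0886 and 6.71% ± 0.329. The share of *Cdh13* was 12.1% ± 0.475 and 4.51% ± 0.250 (SD, n = 4 each). For *Cdh11* it was 18.3% ± 0.129 and 17.8% ± 0.223, with ranges that overlapped. Per kilobase of a single transcript the share of *Cdh11* was instead higher with TGF-β1, at 19.6% and 20.6% without overlap. The other 5 members together held 0.134 to 0.142% in vehicle and 0.412 to 0.493% with TGF-β1. Among these 5 the order could be told only in part. In vehicle *Cdh1* lay above *Cdh10*, whose range met that of *Cdh3*, and *Cdh3*, *Cdh4* and *Cdh15* overlapped their neighbours. By CPM and per kilobase of a single transcript the mean of *Cdh10* was instead above that of *Cdh1* in vehicle, with overlapping ranges. With TGF-β1 *Cdh10* lay above *Cdh1*, whose range met that of *Cdh3*.

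The summed level of the 10 members per kilobase was 171.3 ± 2.39 in vehicle and 169.1 ± 4.55 with TGF-β1, with overlapping ranges. On the CPM scale, which does not divide by length, it was 1136 ± 16.2 and 1087 ± 26.0 without overlap. Per kilobase of a single transcript it was 251.1 ± 3.71 and 229.7 ± 5.19, also without overlap, so whether the sum fell depended on the scale. *Cdh5* also led in every culture by CPM, with shares of 33.0% and 33.7%. By CPM *Cdh11* also lay above *Cdh2* with TGF-β1, at 262 to 273.8 against 254 to 261.6 CPM, so the exchange of these neighbours held on both length scales but not by CPM. The place of *Cdh13* depended on the scale too. In vehicle it was the third by CPM, the fourth per kilobase of merged exon and the second per kilobase of the single transcript with the longest coding sequence. On that last scale it stayed above *Cdh6* with TGF-β1, whereas *Cdh6* lay above it on the other scales.

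**Figure D4:**
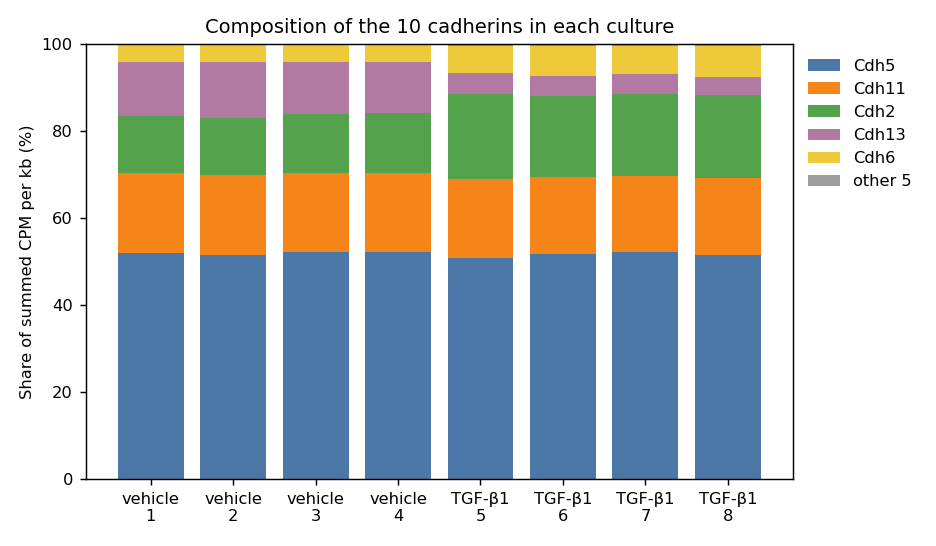
Share of the summed level of the 10 cadherins (percent, CPM per kilobase of merged exon) in each of the 8 cultures, as stacked bars from 0. *Cdh5* takes about the same part of every bar, while *Cdh2* widens and *Cdh13* narrows with TGF-β1, and the other 5 members stay under 0.5%.

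The proteins that work with cadherins were read from fixed lists in the same test. Of 10 genes for catenins and their actin link, 3 rose and 4 fell (70% called, against 41.3% of all genes tested). β-catenin (*Ctnnb1*) was at 546, 574, 584 and 580 CPM in vehicle and 656, 665, 652 and 631 CPM with TGF-β1, without overlap (log2 fold change 0.19, SE 0.02, edgeR adjusted p = 3.66e-09). p120-catenin (*Ctnnd1*), which keeps cadherins at the membrane, fell by 0.17 on the log2 scale (SE 0.03, edgeR adjusted p = 1.29e-06). Exons of another gene on the same strand overlap 61.2% of the exon bases of *Ctnnd1*. For vinculin (*Vcl*) 25.5% is overlapped on the opposite strand, and for *Ctnnb1* 15.1% by genes on both strands. What these overlaps do to the counts was not tested. α-catenin (*Ctnna1*) did not pass, at 336 ± 12.0 and 337 ± 4.48 CPM (SD, n = 4 each). The largest changes of the list were a rise of *Ctnnd2* (log2 fold change 0.66) and of plakoglobin (*Jup*, 0.34) and a fall of vinculin (*Vcl*, −0.48) and of *Arvcf* (−0.46), a relative of p120-catenin.

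Of 5 genes for nectins and afadin, the junction proteins that form contacts together with cadherins, 4 rose and none fell (80% called, against 41.3% of all genes tested, of which 20.9% rose). *Nectin1* went from 91.1 ± 1.59 to 149.4 ± 3.39 CPM (SD, n = 4 each, log2 fold change 0.71, edgeR adjusted p = 1.40e-25). *Nectin2* and *Nectin3* rose by 0.55 and 0.49. *Nectin4* was scarce, at 0.713 ± 0.182 and 1.14 ± 0.242 CPM, with overlapping groups (log2 fold change 0.68, edgeR adjusted p = 0.0143), and its call was lost without vehicle culture 3 (adjusted p = 0.0591) or TGF-β1 culture 7 (0.0648). The median log2 fold change of the list was 0.55.

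Of 6 genes for cleavage of the cadherin precursor and shedding, 1 rose and 2 fell (50% called, near the 41.3% of all genes). Furin (*Furin*), the protease that removes the cadherin prodomain, rose from 256 ± 4.69 to 328 ± 5.03 CPM (SD, n = 4 each, log2 fold change 0.35). *Adam10*, the main sheddase of N- and E-cadherin, fell by 0.26 on the log2 scale, and *Ncstn*, a subunit of γ-secretase, by 0.09. Of 8 transcription factors known to repress cadherin promoters, 2 rose and 3 fell (62.5% called, against 41.3% of all genes), with a median of −0.01. *Zeb2* (0.32) and *Snai1* (0.12) rose, and *Twist1* (−0.34) and *Snai2* (−0.19) were among those that fell.

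The other type II cadherins were 9 genes, of which 4 were tested, 1 rose and 1 fell (50% of those tested, near the 41.3% of all genes). *Cdh19*, known from Schwann cell precursors, was at 1.43, 1.01, 1.03 and 1.45 CPM in vehicle and 0.349, 0.326, 0.436 and 0.340 CPM with TGF-β1 (log2 fold change −1.75, SE 0.25, edgeR adjusted p = 1.02e-07). The groups lay apart. *Sox10*, the defining factor of that lineage, fell too, from 0.450 ± 0.190 to 0.212 ± 0.15 CPM (SD, n = 4 each) with overlapping groups (log2 fold change −1.09, edgeR adjusted p = 0.0370). The 5 markers of Schwann and oligodendrocyte lineage summed to 4.21 to 5.58 CPM in vehicle and 5.42 to 6.06 CPM with TGF-β1, 1 called higher and 1 lower, and their part in the *Cdh19* value was not tested. *Cdh24* rose by 0.17 with overlapping groups (edgeR adjusted p = 0.0222), and that call was lost without vehicle culture 2 (adjusted p = 0.0542), vehicle culture 3 (0.0535), TGF-β1 culture 5 (0.137) or TGF-β1 culture 7 (0.0561).

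Among 42 other genes of the cadherin superfamily, 27 were tested, 8 rose and 4 fell (44.4% of those tested, about the 41.3% of all genes). *Fat4*, a giant cadherin of planar polarity and growth control, went from 206 ± 11.7 to 73.6 ± 3.75 CPM (SD, n = 4 each, log2 fold change −1.49), a change of about the size of that of *Cdh13*. The protocadherin *Pcdh7* went from 180.3 ± 2.56 to 321 ± 4.43 CPM (log2 fold change 0.83). Another gene on the opposite strand overlaps 21.1% of its exon bases, and what this does to its counts was not tested. *Pcdh1* rose by 0.80 on the log2 scale, and *Cdh26* fell by 1.33.

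**Figure D5:**
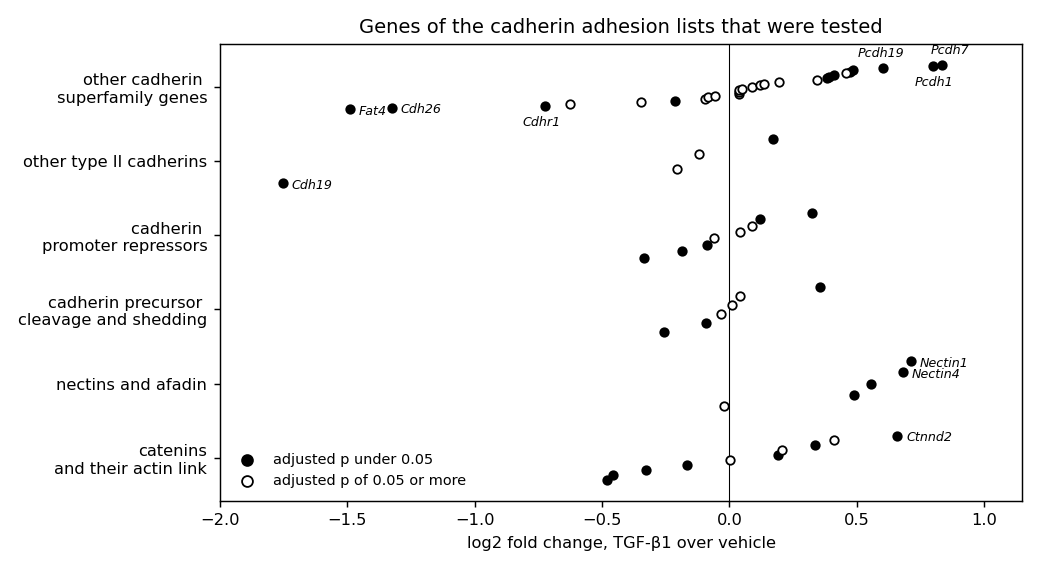
Log2 fold change (TGF-β1 over vehicle) of the tested genes of 6 lists, 1 point per gene, filled where the edgeR adjusted p is under 0.05. The 4 called nectins lie right of 0, and the catenin list holds filled points on both sides.

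Among the genes used to check the labels for a TGF-β response, *Smad7* (log2 fold change 0.60), *Skil* (0.97) and *Cthrc1* (1.06) rose. The pericyte label was checked against 10 markers. *Pdgfrb*, the PDGF receptor of mural cells, was at 197 to 209.5 CPM in vehicle and 289 to 293.5 CPM with TGF-β1, and the list summed to 572.1 to 590.9 and 745.3 to 773.6 CPM. Of the 7 markers tested 3 rose and 2 fell. Besides *Pdgfrb*, those that rose were *Cspg4*, from 82.8 ± 2.49 to 169 ± 5.61 CPM (SD, n = 4 each, log2 fold change 1.03, edgeR adjusted p = 2.02e-30), and *Cd248* (0.20, edgeR adjusted p = 4.96e-09). Those that fell were *Rgs5*, from 8.61 ± 0.466 to 2.13 ± 0.245 CPM (log2 fold change −2.02, edgeR adjusted p = 7.63e-21), and *Anpep*, from 40.4 ± 3.52 to 30.1 ± 1.39 CPM (−0.43, edgeR adjusted p = 5.13e-09, SD, n = 4 each). All 4 were named after their values were seen. *Kcnj8*, *Abcc9*, *Des* and *Vtn* were under 1 CPM in every culture. The summed CPM of the astrocyte list was 50.1 to 57.2 in vehicle and 39.2 to 44.2 with TGF-β1 (*Aqp4* under 1 CPM in all), a fall carried by *Slc1a2* (log2 fold change −1.24) while *Aldh1l1* (0.77) and *Slc1a3* (0.64) rose, all 3 named after their values were seen. For the mesothelial list the sum was 101 to 115.3 and 143.3 to 153.6 CPM. Most of it was *Msln*, which rose from 109 ± 6.60 to 147 ± 4.68 CPM (SD, n = 4 each, log2 fold change 0.43, edgeR adjusted p = 3.06e-12), named after its values were seen. *Upk3b*, *Wt1* and *Lrrn4* were under 1 CPM in every culture. The macrophage and microglia list summed to 8.02 to 8.92 and 9.29 to 11.0 CPM. No marker was at 0 in every culture, and the part of any of these cells in the cadherin values was not tested.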

How the data were processed

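RNA was sequenced from 8 cultures with a stranded total RNA kit. The authors aligned reads to mm10 with STAR 2.7.5c in its 2-pass mode and deposited raw counts per gene from featureCounts 2.0.3, after PCR duplicates had been taken out with SAMtools 1.15. The strand setting and annotation are not given in the sources used here. Between 68.5 and 70.2% of counts from 1 to 20 were even, so if both mates were counted, fewer fragments than counts were independent.

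Counts were tested with edgeR 4.0.16 (R 4.3.3; filterByExpr, TMM, robust quasi-likelihood, adjusted p under 0.05). The standard error is the log2 fold change divided by the square root of F, and 95% intervals use the t quantile of the fit's degrees of freedom. On the counts as given, cultures of a group differed by more than sampling noise, with a chi-square per degree of freedom of 2.25 to 3.96. With counts halved it was 1.14 to 2.11, so the size of this excess depends on whether both mates were counted. P-values measure the spread between the cultures, which may be partly technical. Levels between genes are CPM per kilobase of merged GENCODE M21 exons. The code was tested on simulated counts. DESeq2 1.42.0, other scalings and filters, halved counts and the omission of each culture were alternatives, as was a length scale chosen after seeing the data.

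The members and lists were chosen with earlier results of these data known. Named are the members, the called genes with the up to 4 largest changes of each list, 3 catenins, TGF-β response genes and defining markers. A gene that falls under this rule is not reported here.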

Additional observations from a re-analysis of the deposited data

How the results depend on the processing

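The calls of *Cdh2*, *Cdh6*, *Cdh10* and *Cdh13* held under all 15 alternatives, with log2 fold changes of 0.46 to 0.49, 0.69 to 0.77, 3.03 to 3.22 and −1.47 to −1.41. *Cdh5* stayed uncalled under all 15, at −0.05 to −0.01. The members called lower fell from 2 to 1, as *Cdh11* was lost, with DESeq2, with its size factors, with at least 1 count in any culture and, leaving out each culture in turn, in a range of 1 to 2. The other type II cadherins called ranged from 1 to 2 when a culture was left out, as *Cdh24* was lost. *Cdh3*, at 2 to 21 counts per culture, was called in 6 of the 13 alternatives that gave it a value. Uncalled differences turned over for *Cdh1* (−0.0240 to 0.35, leaving out each culture), *Cdh4* (−0.0086 to 0.50) and *Ctnna1* (−0.0145 to 0.0234, with −0.0090 by library totals and −0.0038 by upper-quartile factors and with at least 1 count). The share of *Cdh5* was 33.0% in vehicle and 33.7% with TGF-β1 by CPM, with overlapping groups. Per kilobase of a single transcript, a scale chosen after seeing the data, it was 37.3% and 40.0% without overlap. The cause of these shifts was not tested, except that the scale divides by another length. The median of all genes was −0.0112, and −0.0224 to −0.0056 under the other scalings and filters. No paired analysis was possible because the labels number the vehicle cultures 1 to 4 and the TGF-β1 cultures 5 to 8 and share no number.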
